A study of Mus musculus with 4 samples.

Results

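The NR4A receptors Nr4a1, Nr4a2 and Nr4a3 were examined in mouse embryonic fibroblasts (MEFs), primary connective tissue cells grown out of mouse embryos. The family was taken whole: every probe set annotated with 1 of these 3 symbols was kept, which gave 5 of the 22626 probe sets on the array that are not controls. Nr4a1 was read by 1 probe set, Nr4a2 by 2 and Nr4a3 by 2. The 4 samples, each on 1 Affymetrix MOE430A array, all carried the retroviral vector pBabePuro, which bears puromycin resistance. In control 1 and control 2 the virus was empty, and in mTert 1 and mTert 2 it also brought in mTert, the catalytic subunit of mouse telomerase. In vectors of this type the viral long terminal repeat drives the insert, so mTert is made outside its own gene's control. The labels do not say which mouse strain or passage was used, or whether arrays of a group came from separate cultures, so a p-value here covers no more than the spread among these 4 arrays, part of which may be technical.

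The family was chosen from the difference between mTert and control signals, in which Nr4a1 was among the lower genes. Its values in that comparison are therefore given as a description, with no test. Signals are in arbitrary units after each array was scaled to 1 mean, and differences are log2 mTert minus log2 control. Each comes with its SE, the standard error from the limma model of all probe sets. The 2 probe sets of a gene read the same RNA and are not replicates.

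NR4A proteins are nuclear receptors that act without a known hormone. Their ligand pocket is filled by bulky side chains, so their activity is set mainly by how much protein a cell makes. They are immediate-early genes: serum, growth factors, cyclic AMP and calcium switch them on within minutes, largely through the transcription factor CREB, which binds cyclic AMP response elements (CREs), and through MEF2. The proteins bind the NBRE element as single molecules, and Nr4a1 and Nr4a2 can also pair with retinoid X receptors. In fibroblasts, Nr4a1 is known as a brake on TGF-beta signalling.

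The promoters are printed because CREB acts on the family through CREs, and because the 5-letter core of that element, though not the full one, occurs in each of the 3. The 250 bases before each transcription start are from RefSeq, build GRCm38.p6, read 5′ to 3′ on the gene's strand. Capitals mark CRE cores, the 5 letters TGACG on either strand, which read CGTCA when they lie on the other one. Nr4a1 starts on the plus strand of chromosome 15 (chr15:101266596-101266845), Nr4a2 on the minus strand of chromosome 2 (chr2:57124004-57124253) and Nr4a3 on the plus strand of chromosome 4 (chr4:48045055-48045304).
Nr4a1: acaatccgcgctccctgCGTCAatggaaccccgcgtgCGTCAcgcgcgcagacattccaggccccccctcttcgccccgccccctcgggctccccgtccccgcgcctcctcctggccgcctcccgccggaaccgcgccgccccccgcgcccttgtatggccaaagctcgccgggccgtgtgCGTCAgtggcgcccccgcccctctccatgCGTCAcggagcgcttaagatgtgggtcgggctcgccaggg
Nr4a2: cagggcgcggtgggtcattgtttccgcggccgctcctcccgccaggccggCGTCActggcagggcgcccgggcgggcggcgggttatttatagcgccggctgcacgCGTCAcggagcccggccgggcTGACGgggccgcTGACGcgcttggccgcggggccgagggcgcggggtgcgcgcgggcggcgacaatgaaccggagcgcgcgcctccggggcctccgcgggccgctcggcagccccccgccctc
Nr4a3: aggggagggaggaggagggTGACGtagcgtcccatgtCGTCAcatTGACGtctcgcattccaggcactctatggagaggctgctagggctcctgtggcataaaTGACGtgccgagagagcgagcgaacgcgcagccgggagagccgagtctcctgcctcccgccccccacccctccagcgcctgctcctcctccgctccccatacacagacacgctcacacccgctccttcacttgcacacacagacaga

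Each of the 3 promoters held 4 CRE cores. Of 32841 mouse promoter windows of the same length, 17.77% held 1 or more and 0.14% held 4 or more. All 4 in Nr4a1 lay on the strand opposite to the gene, and the nearest began 40 bases before the start. In Nr4a2 they lay between 200 and 107 bases before the start, with 2 on each strand, and in Nr4a3 between 231 and 143 bases, with 3 on the gene's strand. These windows are rich in G and C, at 74.4%, 80.0% and 63.6% for Nr4a1, Nr4a2 and Nr4a3 against a median of 52.4%. Among windows within 5 points of the same GC content the share with 4 or more CRE cores was 0.29% for Nr4a1, 0.32% for Nr4a2 and 0.36% for Nr4a3.

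Other motifs were searched on both strands in the same windows. The full CRE TGACGTCA, the NBRE AAAGGTCA, the AP-1 site TGACTCA and the CArG box bound by SRF matched in 0 of the 3 promoters, and in 1.55%, 1.34%, 4.46% and 1.47% of all windows. The Sp1 box GGGCGG matched 3 times in Nr4a1, 4 times in Nr4a2 (where 2 matches overlap) and once in Nr4a3, and 32.75% of windows held it. The EGR site GCGNGGGCG matched once in Nr4a1 and once in Nr4a2, in both overlapping an Sp1 box, and in 4.7% of windows. A MEF2 site was matched in Nr4a2 alone of the 3, where it shares letters with the TATA box TATAAA on the other strand; 2.92% and 12.37% of windows held these motifs. A match is a stretch of letters and not a measured site of binding.

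**Figure D1:**
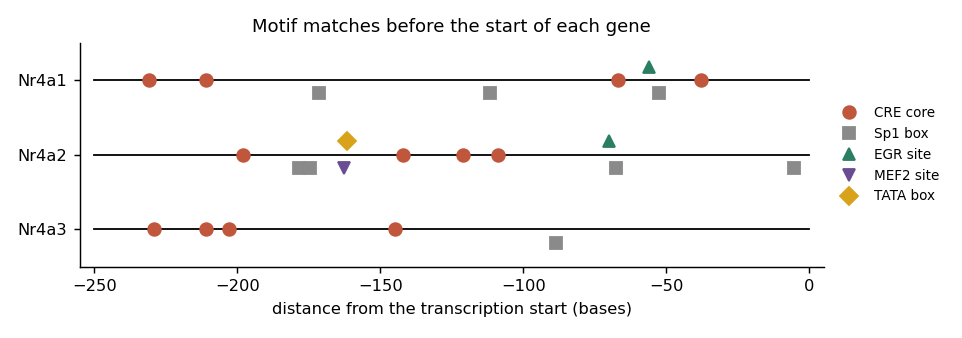
Positions of the motif matches in the 250 bases before the transcription start of Nr4a1, Nr4a2 and Nr4a3; the x axis is the distance from the start in bases, 1 line is 1 gene, and symbols above and below a line are set apart for legibility only. Each line carries 4 CRE cores (red circles), between 233 and 36 bases before the start.

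Before the family's values, the labels were checked on the arrays. The signal of Tert, the gene the virus carries, was called absent in the controls, at 128 and 84.7, and present in the mTert samples, at 1165 and 845. All 10 fibroblast markers were called present on all 4 arrays, with a summed signal of 86953 to 90505 in control and 82772 to 87159 in mTert. Of 6 endothelial, 6 epithelial, 5 skeletal muscle and 4 neural markers, 1, 0, 0 and 1 were present on every array. Macrophage genes followed the numbers in the titles: their 11 markers summed to 3167 and 3462 on control 1 and mTert 1, but to 12491 and 13055 on control 2 and mTert 2, with 7 markers present on the former arrays and 9 on the latter. Control 1 was hybridised from 5 µg of labelled cRNA and each other array from 15 µg. Between 51.6% and 54.4% of probe sets were called present.

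Nr4a1, which serum and T cell receptor signals are known to induce, was present on all 4 arrays and lower in both mTert samples. The 2 controls gave 7721 and 7181, and the mTert samples 4702 (mTert 1) and 3854 (mTert 2). Both mTert values lay below both controls, and the lowest control was 1.53-fold above the highest mTert value. Controls averaged 7451 ± 382 and mTert samples 4278 ± 599 (SD, n = 2 arrays each). The log2 difference was -0.81 (SE 0.11), or 1.75-fold less as a ratio of geometric means. Counting Nr4a1, 24 of the 12396 probe sets tested had a difference as low or lower. In a bulk sample, fewer cells that express a gene and less of its RNA per cell cannot be told apart.

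Nr4a2, known for its part in dopamine neurons and induced in many cell types by the same signals, was also present on all 4 arrays. Probe set 1450750_a_at gave 370 and 423 in the controls, and 252 and 256 in the mTert samples. Probe set 1450749_a_at gave 194 and 288 in the controls, and 167 and 156 in mTert. On both probe sets the mTert values lay below the controls, but the second has a wide spread between its controls. The differences were -0.64 (SE 0.16), or 1.56-fold less, and -0.55 (SE 0.25), or 1.46-fold less. The detection p-values in the authors' deposited tables for 1450749_a_at ran from 0.00586 to 0.0376, while those of 1450750_a_at were at most 0.000732.

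Nr4a3, the third receptor, was not called present on any array. Probe set 1421079_at gave 20.2 and 24.7 in control and 23.2 and 20.3 in mTert, with detection p-values of 0.568 to 0.666. Probe set 1421080_at gave 61.8 and 60.1 in control and 64.1 and 52.4 in mTert, with detection p-values of 0.870 to 0.888. The groups overlapped on both probe sets. A signal that is not above background gives no fold, so whether Nr4a3 RNA differed was not measurable with these probe sets.

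**Figure D2:**
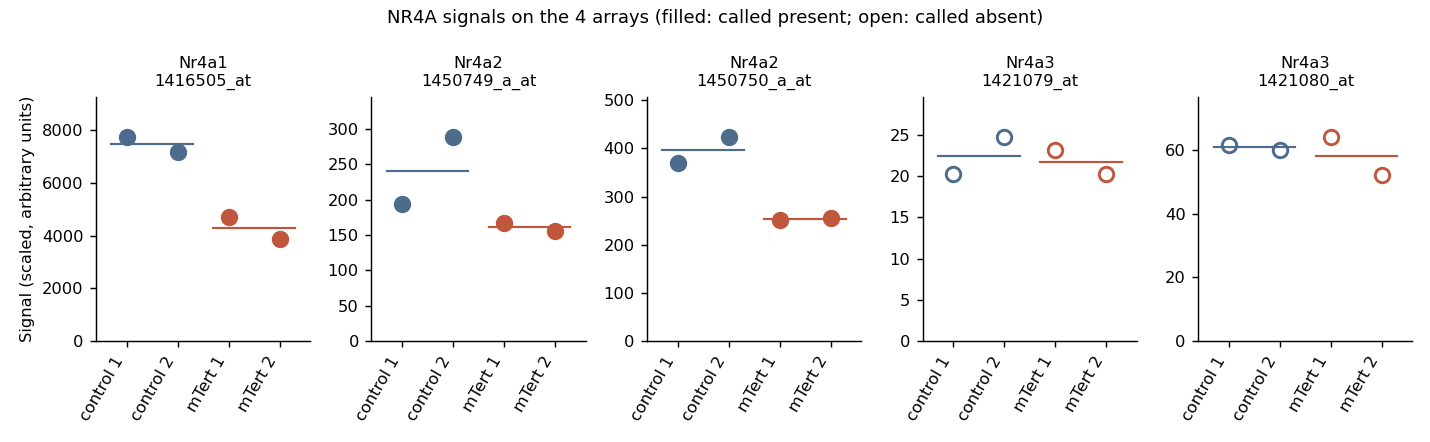
Scaled signal of the 5 NR4A probe sets on each array, in arbitrary units from 0, 1 panel per probe set with its own y axis; filled points were called present, open points absent, and lines are group means of 2 arrays. Nr4a1 stands at 7721 and 7181 in the controls and at 4702 and 3854 in mTert, Nr4a2 lies lower in mTert on both probe sets, and Nr4a3 is absent throughout.

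The 3 NR4A probe sets that passed the filter (a present call on at least 2 of the 4 arrays) all had both mTert signals below both controls. This held for 12.1% of the 12396 probe sets tested, and the members were chosen with it known, so nothing is read from the count. Of the 5 probe sets, the 2 for Nr4a3 did not pass the filter. Across all probe sets limma called 0 higher (0%) and 0 lower (0%) in mTert at an adjusted p of 0.05 after Benjamini-Hochberg adjustment, with 261 at an unadjusted p under 0.05. An exact permutation test of a single gene could not reach the threshold in this design, its smallest two-sided p being 0.333.

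Each mTert array was then set against each control array. For Nr4a1 the 4 ratios ran from -1.002 (mTert 2 over control 1) to -0.61 (mTert 1 over control 2). For Nr4a2 they ran from -0.75 to -0.53 on 1450750_a_at and from -0.88 to -0.215 on 1450749_a_at. With groups that do not overlap each ratio has to be below 0, so the sizes alone are of interest. The spread of 1450749_a_at follows control 1, whose signal of 194 lies nearer to the mTert values than to control 2. Without control 1, the array with less cRNA, the differences were -0.75 for Nr4a1, -0.74 for 1450750_a_at and -0.84 for 1450749_a_at; without control 2 the last was -0.26.

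Within the arrays numbered 1, where macrophage markers were low, Nr4a1 stood at -0.72. It stood at -0.90 within those numbered 2, where they were about as high in mTert as in control. The values for Nr4a2 were -0.55 and -0.72 on 1450750_a_at and -0.215 and -0.88 on 1450749_a_at. Since the groups did not overlap on these probe sets, the sign of each value follows from that, and only its size adds to it. The part of macrophage RNA in the differences was not tested.

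**Figure D3:**
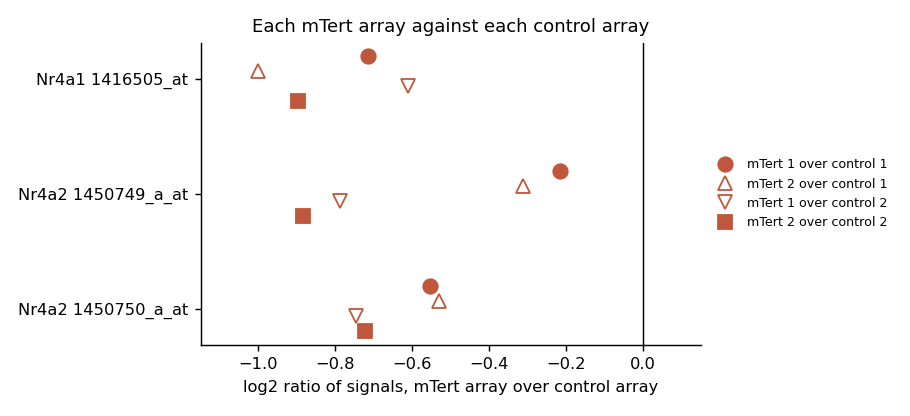
Log2 ratio of each mTert array over each control array (x axis) for the 3 NR4A probe sets called present (y axis); filled symbols pair arrays of the same number and open symbols arrays of different numbers. The 12 ratios run from -1.002 to -0.215, and those of Nr4a2 1450749_a_at divide by control array.

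The contrast between arrays numbered 2 and 1 did not choose the members, so it was tested, with the group as a term. Nr4a1 had a geometric mean of 6025 on the arrays numbered 1 and 5261 on those numbered 2, a difference of -0.20 (SE 0.09) with a limma adjusted p of 0.404 (unadjusted 0.0353). For Nr4a2 the differences were 0.11 (SE 0.19, limma adjusted p = 0.980) and 0.24 (SE 0.24, limma adjusted p = 0.907) on 1450750_a_at and 1450749_a_at. Thus 0 of the 3 probe sets passed, where limma called 2.8% of all probe sets tested in this contrast. On Nr4a1 the array numbered 2 stood at -0.10 relative to number 1 among controls and at -0.29 among mTert samples. On 1450749_a_at number 2 was higher by 0.57 among controls and stood at -0.10 in mTert. A p that misses the threshold does not show that the numbers are alike.

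Genes with a pattern like that of Nr4a1 were found by the Euclidean distance between the 4 log2 values of each probe set, centred on their own mean. Over 12395 other probe sets the median distance was 0.881. The nearest gene was Btg2, an antiproliferative gene that recruits messenger RNA decay factors, at 0.102. Its signals were 3065 and 3106 in control and 1949 and 1666 in mTert. Next came Gadd45b, a stress sensor, at 0.130, with 2490 and 2619 in control and 1647 and 1312 in mTert. Kin (0.176), the Notch target Hey1 (0.208), the mitochondrial ribosomal protein gene Mrpl33 (0.217), the ERK phosphatase Dusp6 (0.220), St6galnac4 (0.220) and the AP-1 subunit Fosb (0.225) followed. In all 8 both mTert signals lay below both controls, which the measure favours since Nr4a1 has that order. Kin, Mrpl33 and St6galnac4 had signals between 51.6 and 192, and those of Fosb ran from 3398 to 5977. Nr4a2 was less near: 46 probe sets lay closer to Nr4a1 than 1450750_a_at (0.348) and 319 closer than 1450749_a_at (0.559).

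Genes that act on the NR4A promoters were followed next. Of 39 activators (CREB and its coactivators, protein kinase A, calcium and ERK signalling, MEF2 and the histone deacetylases that restrain it), 24 were measured. In sign 12 were lower and 12 higher, with a median of 0.007 beside 0.008 over all 7387 genes tested. Both mTert arrays lay below both controls for 1 gene (4.17%) and above for 3 (12.5%), beside 11.7% and 13.8% of all genes. Limma called 0 of them in either direction (0% of all genes each way), and Mef2d was the 1 with an unadjusted p under 0.05. Over all 7387 genes, 100 on the lower side and 63 on the higher had such a p.

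Among these, Creb1 had signals of 173 and 167 in control and 170 and 149 in mTert, a difference of -0.10 (SE 0.20). Crem, whose short isoform represses CRE-driven genes, stood at 0.03 (SE 0.20). Prkaca, the catalytic subunit of protein kinase A, stood at -0.07 (SE 0.22), Srf at 0.02 (SE 0.14), Mef2a at 0.02 (SE 0.14), Nfatc3 at 0.06 (SE 0.16) and the MEF2 repressor Hdac5 at -0.02 (SE 0.13). On these, the brightest probe sets, the difference was smaller than its SE. The 3 other tested probe sets of Mef2a stood between -0.31 and -0.10, and the other one of Nfatc3 was opposite in sign to its brightest. Mef2d was higher in both mTert samples, with 678 and 701 in control and 886 and 874 in mTert, or 0.35 (SE 0.12; limma adjusted p = 1.00). Chosen after their values were seen, the other genes without overlap were Camk1 and Mef2c, higher by 0.21 (SE 0.14) and 0.16 (SE 0.14), and the CREB coactivator Crtc3 at -0.43 (SE 0.20), with 299 and 231 in control and 197 and 195 in mTert. The other tested probe sets of Camk1 (1, at -0.05) and of Mef2c (4, from -0.36 to -0.04) were opposite in sign. Crtc2 and Mapk7, the ERK5 kinase, were not called present on enough arrays to be tested.

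The genes listed here as CREB-regulated early genes stood on the lower side, and CREB activity itself was not measured. Of 28 genes 22 were measured, of which 19 were lower and 3 higher in sign, with a median of -0.40 (quartiles -0.57 and -0.19). Both mTert arrays lay below both controls in 16 (72.7%, beside 11.7% of all genes) and above in 1 (4.55%, beside 13.8%). Limma called 0 of them in either direction. At an unadjusted p under 0.05, 13 were lower and 1 higher, beside 100 and 63 of all 7387 genes. Many of the listed genes were known to be lower from earlier results on these arrays, so the counts are not independent evidence.

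Nfil3, a repressor of the circadian and immune systems, gave 860 and 963 in control and 568 and 626 in mTert, or -0.61 (SE 0.14), within the range of the NR4A probe sets. Gem, a small GTPase, stood at -0.45 (SE 0.16), the clock gene Per1 at -0.40 (SE 0.16) and the MAP kinase phosphatase Dusp1 at -0.34 (SE 0.09). Each had both mTert values below the controls. Pde4b, which breaks down cyclic AMP, also did, at -0.58 (SE 0.26). Rgs2, which limits G protein signals, went the other way, with 471 and 639 in control and 731 and 823 in mTert, or 0.50 (SE 0.19). Cebpb stood at -0.07 (SE 0.15) with overlapping groups, and its other tested probe set was opposite in sign. Sik1, a kinase that shuts CREB coactivators out of the nucleus, was not measured. Each of the measured genes named in this paragraph had a limma adjusted p of 1.00.

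Partners and coregulators of NR4A proteins centred near 0. Of 34 genes 21 were measured, 9 lower and 12 higher in sign, with a median of 0.03. Both mTert arrays lay below both controls for 1 gene (4.76%, beside 11.7% of all genes) and above for 2 (9.52%, beside 13.8%), and limma called 0, with 1 lower at an unadjusted p under 0.05. Rxra and Rxrb, the retinoid X receptors that pair with Nr4a1 and Nr4a2, stood at 0.14 (SE 0.22) and -0.34 (SE 0.22), with overlapping groups. Rcor1, the CoREST subunit through which Nr4a2 represses inflammatory genes, stood at -0.05 (SE 0.12) and Stk11 at -0.10 (SE 0.16). Chosen after their values were seen, Trib1 stood at -0.40 (SE 0.15), Pias1 at 0.32 (SE 0.14) and Ncoa1 at 0.10 (SE 0.13), all without overlap. The other tested probe sets of Pias1, at -0.67 (SE 0.36) and -0.31 (SE 0.23), and of Ncoa1, at -0.11 (SE 0.14), were opposite in sign, while that of Trib1 had the same sign. Ncoa2 and Bcl2 were not measured, and Ncor1 was not analysed here.

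Genes described elsewhere as NR4A targets were mostly not called present; many are known from steroid glands, muscle, liver or neurons. Of 47 genes 18 were measured, 10 lower and 8 higher in sign, with a median of -0.05. With all probe sets of a gene averaged the median was 0.051. Both mTert arrays lay below both controls for 4 (22.2%, beside 11.7% of all genes) and above for 0 (beside 13.8%), and limma called 0, with 1 lower at an unadjusted p under 0.05. Ccnd1 and Ccnd2, the D-type cyclins, stood at -0.001 (SE 0.11; 0.18 and 0.11 on the other probe sets of Ccnd1) and 0.08 (SE 0.17), and the kinase inhibitor Cdkn1a at 0.03 (SE 0.16). E2f1 stood at 0.04 (SE 0.16), Srebf1 at -0.19 (SE 0.15), Skp2 at -0.17 (SE 0.22; from -0.06 to 0.16 on 3 others), Vcam1 at 0.007 (SE 0.17) and Nfkbia at -0.16 (SE 0.20). In all of these the groups overlapped. The 4 lower genes without overlap, named after their values were seen, were Klf2 at -0.45 (SE 0.14), Ucp3 at -0.26 (SE 0.21), Cdkn1b at -0.24 (SE 0.14) and the cell death gene Bcl2l11 at -0.18 (SE 0.12). These are the brightest probe sets: the other one of Cdkn1b stood at 0.36 (SE 0.42) and the 4 others of Bcl2l11 between 0.07 and 0.26, opposite in sign. Pdk4 was not measured, and Spp1 and Ucp2 were not analysed here.

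Other members of the nuclear receptor superfamily centred near 0. Of the 46 others 16 were measured, 9 lower and 7 higher in sign, with a median of -0.008 and a range from -0.39 to 0.39. The 3 NR4A probe sets, at -0.81 to -0.55, lay outside this range. The family was chosen from this same contrast, which favours that outcome, so nothing is read from it. Each other receptor is read by its brightest probe set alone, while all tested NR4A probe sets are shown. Both mTert arrays lay below both controls for Nr2f2 (6.25%, beside 11.7% of all genes), and above for Nr2c1 and Nr5a2 (12.5%, beside 13.8%). Limma called 0 of them, and 0 had an unadjusted p under 0.05. The glucocorticoid receptor Nr3c1 stood at -0.24 (SE 0.17), with 1018 and 787 in control and 814 and 707 in mTert. Nr2f1 stood at -0.39 (SE 0.29), its relative Nr2f2 at -0.11 (SE 0.13), Rora at -0.32 (SE 0.27), the clock repressor Nr1d2 at -0.06 (SE 0.13) and the retinoic acid receptor Rarg at -0.01 (SE 0.12). The other tested probe set of Rora stood at 0.24 (SE 0.19), opposite in sign, and that of Rarg was also opposite in sign to its brightest. Nr1d1, Ppard, Pparg, Vdr and Esrra were not called present on enough arrays, and Nr1h2 was not analysed here. The difference between the NR4A probe sets and the other receptors was not tested.

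**Figure D4:**
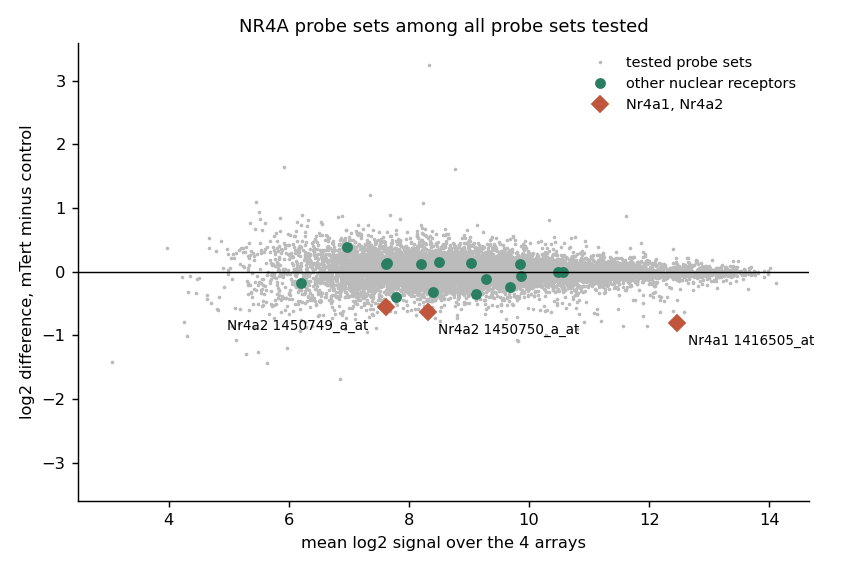
Log2 difference, mTert minus control (y axis), against the mean log2 signal over the 4 arrays (x axis) for 12396 probe sets in grey, 16 other nuclear receptors in green and the 3 measured NR4A probe sets as red diamonds. The NR4A probe sets, chosen with this contrast known, lie between -0.81 and -0.55. The other receptors, each on its brightest probe set, lie between -0.39 and 0.39.

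**Figure D5:**
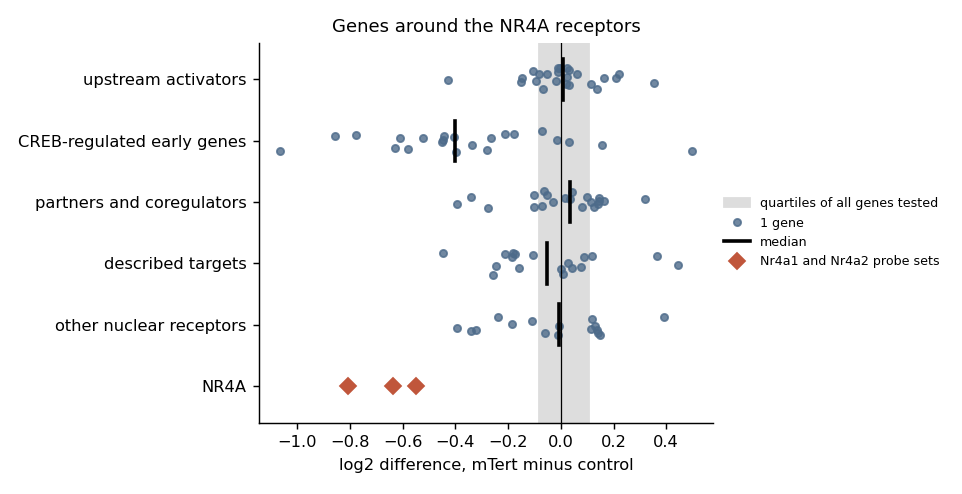
Log2 difference, mTert minus control (x axis), of each measured gene in 5 lists and of the 3 NR4A probe sets (y axis); black bars are list medians and the grey band spans the quartiles of all 7387 genes tested. The CREB-regulated early genes, many of them known to be lower from earlier results on these arrays, centre on -0.40. The medians of the other 4 lists lie between -0.05 and 0.03.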

How the data were processed

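RNA of 4 MEF samples was hybridised to 1 MOE430A array each. The authors deposited 1 linear intensity per probe set, with a present, marginal or absent call and a detection p-value, per the file headers. How probes were summarised into a signal is not stated in the sources used here. Instrument records deposited by the authors gave other facts such as the cRNA amount. The series table held the same intensities (largest difference 0).

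Signals were scaled to 1 mean, leaving out 2% of probe sets at each end, then log2 was taken. A floor, the array's lowest present signal, replaced the 1 signal at 0. The 64 control probe sets and those present on fewer than 2 arrays were left out, leaving 12396. GEO's platform annotation gave a single symbol for 20380 probe sets and several for 691, and it did not list 1555. The comparison of groups used limma 3.58.1 (lmFit, eBayes with intensity trend; R 4.3.3), without a replicate term. That of numbers had the group as a term. Benjamini-Hochberg adjustment ran over all probe sets tested. The fit was tested on simulated data.

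Named genes were all NR4A probe sets, list genes marked by role, any list gene past the threshold, and the 8 genes nearest to Nr4a1. A list gene is read by its brightest tested probe set. Promoter sequences are from RefSeq, and motifs given as letters were searched by those letters, with N in the EGR site standing for any base. The CArG box and the MEF2 site were searched by patterns and not by a fixed run of letters. The members and lists were chosen with earlier results of these data known. The alternatives were other scalings, an offset of 50, other filters on calls, no trend, a replicate block and each array left out. The number of arrays limits the precision.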

Additional observations from a re-analysis of the deposited data

How the results depend on the processing

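All 3 NR4A probe sets stayed lower in mTert under quantile normalization and median scaling. They also did with signals as deposited, an offset of 50, the replicate block and any array left out, but these alternatives could hardly change the sign. Groups that do not overlap fix it for the offset and for any array left out. The block leaves each difference unchanged in this balanced design, and the deposited signals already had nearly equal trimmed means. With 1 array left out Nr4a1 ran from -0.95 to -0.66, Nr4a2 1450750_a_at from -0.735 to -0.54 and 1450749_a_at from -0.84 to -0.26. The last moved beyond its spread within arrays numbered 1 alone (-0.215) and numbered 2 alone (-0.88), a choice made after seeing the data. Between numbers, leaving out an array leaves 1 pair and no test: the values ran from -0.29 to -0.10 for Nr4a1, 0.02 to 0.19 for 1450750_a_at and -0.098 to 0.57 for 1450749_a_at, which reversed without either control. Over all probe sets limma called 0 in mTert under every scaling, filter and trend tried, but 18 with a replicate block, 15 lower and 3 higher. With 1 probe set per gene, the block called 12 of all 7387 genes lower and 2 higher. Of the 22 CREB-regulated early genes measured it called 4 lower and 0 higher. That list was made with many of its genes known to be lower, so these calls are not independent evidence. With 2 pairs, the labels do not show that the numbers pair the samples; over probe sets r was 0.984 within a number, 0.973 across numbers and groups and 0.971 within a group. Calls between numbers went from 347 to 76 without the intensity trend and to 192 without the group term. The median of described targets went from -0.05 to 0.051 with probe sets averaged. The causes were not tested. Of the CREB-regulated early genes 17 to 20 of 22 were lower with any array left out. Without the EGR, FOS and JUN genes 14 were lower and 3 higher. These alternatives were chosen after seeing the data. In 16 of the 22 both mTert arrays lay below both controls, so those had to stay lower with any array left out. Of all 7387 genes, 3512 were lower in sign. Many of the listed genes were known to be lower beforehand, so nothing is read from these counts.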

Other observations

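The CRE cores found in the 3 NR4A promoters were also counted in every other gene with a scanned promoter window, a choice made after the data were seen. The values over all genes also cover measured genes without such a window. Outside the family, 41 genes had 4 or more CRE cores in the 250 bases before a start, and 21 of them were measured. In sign 6 were lower and 15 higher in mTert, with a median of 0.04 beside 0.008 over all genes. Both mTert arrays lay below both controls for 2 of them (9.52%, beside 11.7% of all genes), Rab5a, a GTPase of early endosomes, at -0.22 (SE 0.13) and the ubiquitin-conjugating enzyme Ube2j1 at -0.13 (SE 0.11; 0.04 on its other tested probe set). Both lay above for 4 of the 21, a larger share than the 13.8% of all genes. Braf, a kinase of the ERK pathway with 5 CRE cores, stood at 0.16 (SE 0.18), and Aff4, a scaffold of the elongation machinery, at 0.06 (SE 0.11; -0.07 on its other tested probe set). Genes with 3 CRE cores had a median of -0.02 over 72, those with 2 had 0.005 over 404, those with 1 had -0.003 over 1407 and those with 0 had 0.02 over 4144. The share with both mTert arrays below both controls was 16.7% with 3 cores, 14.6% with 2, 13.6% with 1 and 9.94% with 0. Those below numbered 12, 59, 192 and 412 genes in that order, and both arrays lay above for 9, 60, 177 and 595. Over all genes the shares were 11.7% below and 13.8% above. These groups of genes were not tested.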
